A study of Mus musculus with 6 samples.

Results

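The UDP-glucuronosyltransferases (UGT), sulfotransferases (SULT) and glutathione S-transferases (GST) attach glucuronic acid, sulfate or glutathione to drugs, steroids, bilirubin, bile acids and reactive by-products, which makes these compounds water-soluble and ready for export. This second phase of hepatic detoxification takes place mostly in hepatocytes. It uses UDP-glucuronic acid, the sulfate donor PAPS and glutathione as cosubstrates, and the nuclear receptors CAR and PXR, the aryl hydrocarbon receptor and the stress sensor NRF2 are known to control many of its genes. Genes were taken as members if the symbol in the count table began with Ugt1 to Ugt3, Sult1 to Sult6, one of the cytosolic or mitochondrial GST letters followed by a number, or Mgst for the microsomal enzymes. This gave 60 of the 20140 genes listed, with 17 UGT, 18 SULT and 25 GST genes, of which 3 are microsomal. Of these, 56 passed the filter on low counts and were tested, and 4 (Sult3a2, Sult4a1, Sult5a1 and Ugt1a2) did not, with at most 31 counts summed over the 2 livers of a group.

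Poly(A) RNA of whole liver was sequenced on day 21 from 6 mice, with 2 livers each in the sham, intra-C and intra-S groups. Sham mice received PBS, and both other groups received CT26, a colon carcinoma line of BALB/c origin that grows in immunocompetent mice. The labels give the tumor groups only as intra-C and intra-S. The paper describes an orthotopic model with tumor cells placed in the cecum (premetastatic liver) and an intrasplenic model (liver metastasis), and these are taken here to be intra-C and intra-S. Both models are drawn in BALB/c mice in the paper. Mice of the tumor models in general were aged 6 to 10 weeks, and the labels give no strain, sex or age for a single liver. No allele or transgene is named for any group. The route, the site and the load of the tumor changed together with the group, and the libraries hold every cell type of the organ, including any tumor cells.

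The libraries held 32838321 to 43368309 counts, so that 3 counts, the most that a count of 0 allows, came to 0.0679 to 0.0928 CPM (the count scaled to the size of the library). Such limits and the counting intervals given for some genes cover counting error only. CPM are scaled here by the trimmed mean of M values (TMM), and TPM, which also account for gene length, are used to compare genes with each other. The label of the tissue was checked with 11 hepatocyte markers, whose summed level was 131892 to 177032 TPM over the 6 livers. Of these, 1 was called higher and 2 lower in each tumor group. The summed level of 12 neutrophil markers was 10.3 and 14.8 TPM in sham livers against 899 to 3244 TPM in tumor livers, and that of 10 monocyte and macrophage markers was 187 and 198 against 591 to 997 TPM. Of these markers, 11 of 12 and 9 of 10 were called higher in intra-C and 12 and 8 in intra-S. The sum of 7 endothelial markers was 42.1 and 49.3 TPM in sham and 105 to 169 TPM in tumor livers, with 3 and 4 called higher. Erythroid markers were called higher in intra-S alone, 7 of 7 (833 and 1495 TPM in sham, 1270 and 850.3 in intra-C, 4822 and 3676 in intra-S), and so were 3 of 8 markers of stellate cells and fibroblasts (187 and 173 TPM in sham, 186 and 190.3 in intra-C, 265 and 284 in intra-S). The 6 cholangiocyte markers summed to 20.3 and 25.9 TPM in sham, 74.7 and 119.6 in intra-C and 23.5 and 209 in intra-S livers, with 1 called higher in intra-S. The 12 proliferation markers summed to 19.3 and 17.8 TPM in sham, 27.6 and 28.8 in intra-C and 40.9 and 45.5 in intra-S livers. Of these, 1 was called higher in intra-C and 5 in intra-S. Over all genes tested, 4.92% and 6.78% were called higher and 2.38% and 3.95% lower in intra-C and intra-S. No marker of T and NK cells or of B cells was called. In bulk liver, fewer hepatocytes and less RNA per hepatocyte cannot be told apart, and the part of these other cells in the changes of the conjugation genes was not tested.

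The summed level of all 60 genes was 16758 and 16343 TPM in the sham livers. It was 5874 and 6493 TPM in the intra-C livers and 3918 and 4884 TPM in the intra-S livers, so that all 4 tumor livers lay below both sham livers. The genes took 1.38% and 1.36% of all counts in sham livers, 0.510% and 0.550% in intra-C livers and 0.366% and 0.446% in intra-S livers. On the CPM scale, the sum was 2.16-fold lower in intra-C and 2.79-fold lower in intra-S livers than in sham livers. The SULT2 sum was 4.60-fold and 7.61-fold lower in the 2 tumor groups, the GSTM sum 4.32-fold and 3.03-fold, the GSTT sum 4.15-fold and 3.15-fold, the GSTA sum 2.06-fold and 5.53-fold and the UGT2 sum 2.40-fold and 3.69-fold. The intra-S value of GSTA was 3.40-fold without intra-S replicate 1 and 14.7-fold without intra-S replicate 2. In the same order, that of SULT2 was 5.75-fold and 11.2-fold and that of GSTM 4.48-fold and 2.29-fold. The SULT1 sum was 1.19-fold and 1.10-fold lower, and the intra-S livers lay on both sides of sham, so that the SULT1 sum was 1.13-fold higher without intra-S replicate 2. The GSTP sum was 1.15-fold lower in intra-C livers but 1.13-fold higher in intra-S livers. The intra-S livers overlapped sham in this sum (216 and 204 against 209 and 163 CPM), and on the TPM scale its mean was lower than in sham (253 against 273).

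**Figure D1:**
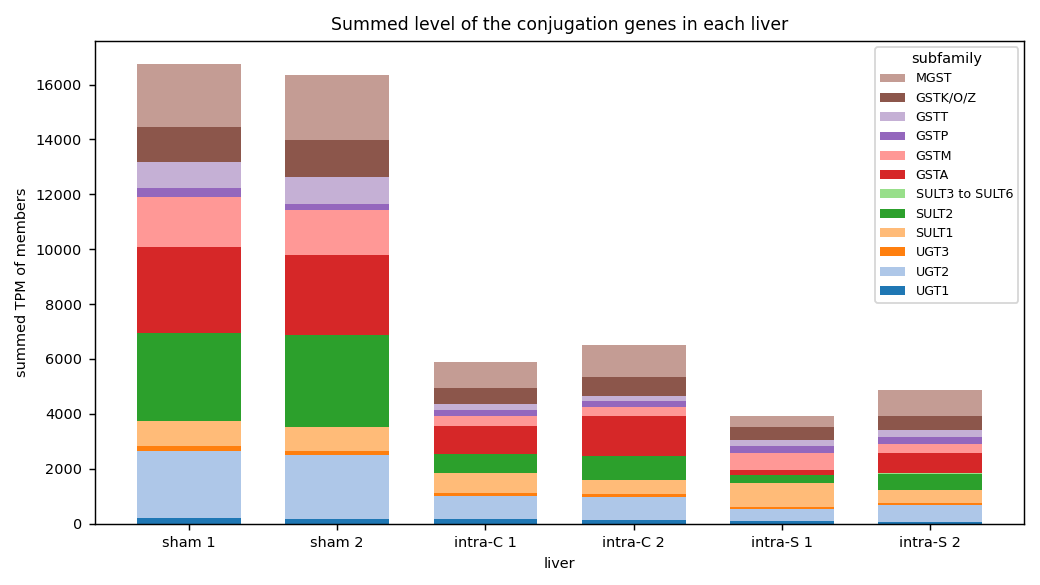
Summed TPM of the 60 conjugation genes in each of the 6 livers, stacked by subfamily. The bars reach 16758 and 16343 TPM in the sham livers and between 3918 and 6493 TPM in the 4 tumor livers.

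Single genes were compared between the groups by the quasi-likelihood test of edgeR, fitted over all 6 livers and adjusted over 16370 genes, and a gene was called at an adjusted p under 0.05. In intra-C livers, 19 of the 56 tested members fell and 1 rose, where 2.38% of all genes tested were called lower and 4.92% higher. In intra-S livers, 28 fell and 1 rose, where 3.95% of all genes were called lower and 6.78% higher. Of the calls, 18 lower genes and the 1 higher gene were the same in both comparisons, which share the sham livers. The median log2 fold change of the tested members was -1.40 in intra-C and -1.66 in intra-S livers, against 0.01 and 0.04 over all genes tested. The log2 fold change was below 0 for 51 and 49 of the 56. For 46 members both intra-C livers lay below both sham livers (34% of all genes did so), and for 47 both intra-S livers did (30% of all genes).

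These calls rest on the 2 sham livers. Without sham replicate 1 or without sham replicate 2, no member and no other gene in the table was called in either comparison, while 30 and 31 of the 58 and 57 members tested in intra-C and 40 and 38 in intra-S had an unadjusted p under 0.05, where 13.7% and 12.8% and 15.8% and 15.7% of all genes did. All 20 calls in intra-C and all 29 in intra-S kept their sign in each of these fits. Without intra-C replicate 1 or 2, no member was called lower in intra-C (0.017% and 0.0227% of all genes were), and 13 or 12 fell in intra-S (0.954% and 0.817% of all genes). Without intra-S replicate 1 or 2, 38 members fell in intra-C in each case, where 12% of all genes did, and 39 or 37 in intra-S, where 6.93% or 15.4% of all genes did. The 2 libraries of a group were not one library deposited again, and the distance between them beyond counting error was largest in intra-S (chi-square over its degrees of freedom 27.2 in sham, 80.9 in intra-C and 372 in intra-S). When the 45 members with at least 10 counts in every liver were tested, 19 fell in intra-C and 26 in intra-S, where 3.27% and 4.79% of all genes did. This filter left out Mgst2, the 1 member called higher, which had 2 counts and 1 count in the sham livers. DESeq2 called 11 further members lower in each comparison, where it called 6.78% and 8.95% of all genes lower. These were Gstm3, Gstm7, Gstt3, Gstz1, Sult1c2, Sult2a2, Sult2a5, Ugt2b34, Ugt2b37, Ugt3a1 and Ugt3a2 in intra-C and Gsta3, Gstm7, Mgst1, Sult1b1, Sult1c2, Sult2a6, Sult2a7, Ugt1a1, Ugt1a5, Ugt2b35 and Ugt2b37 in intra-S.

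**Figure D2:**
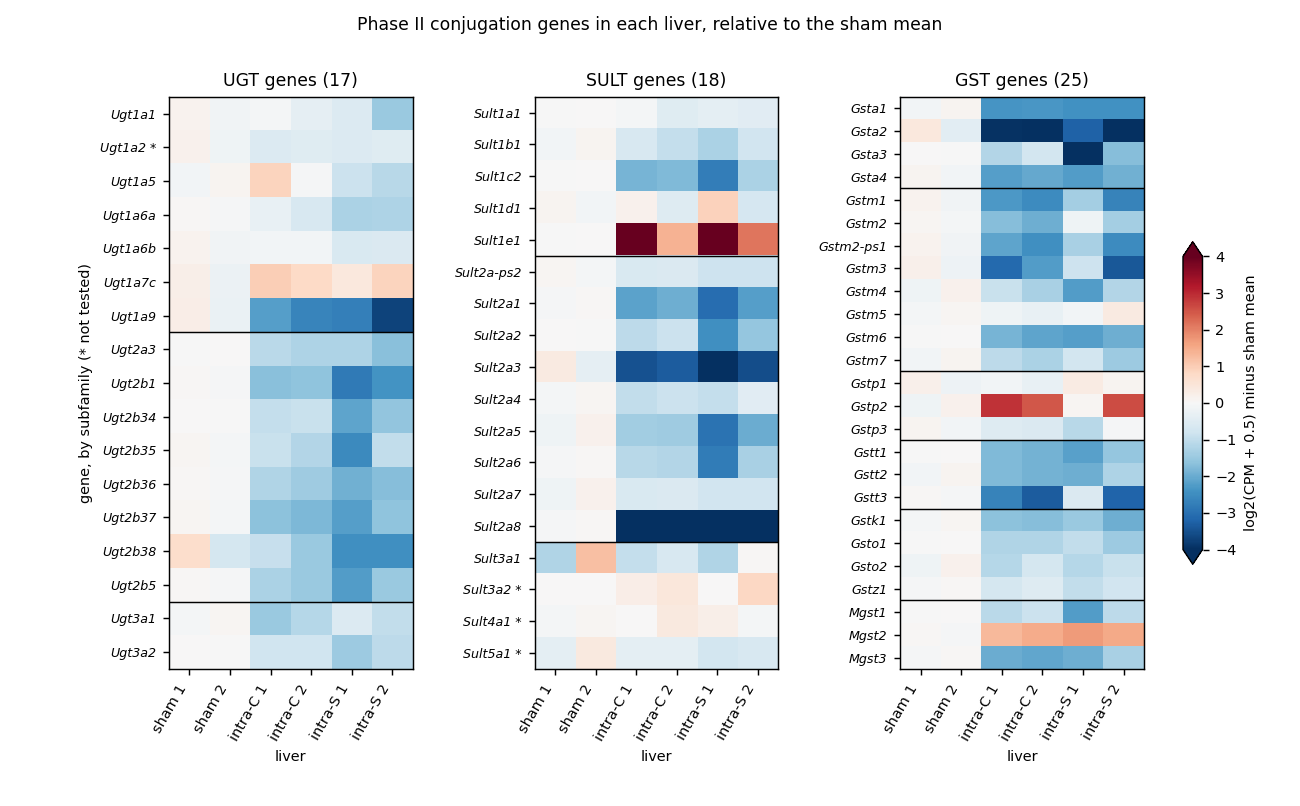
Log2(CPM + 0.5) of each of the 60 genes in each liver minus the mean of the 2 sham livers, with genes in rows by subfamily (black lines), livers in columns and an asterisk at the 4 genes that were not tested. Blue is lower and red higher than sham, with colours ending at 4 log2 units, and the rows of Sult1e1, Gstp2, Mgst2 and Ugt1a7c are red in most tumor livers while most other rows are blue.

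Among the UGT genes, 5 of 16 tested fell in intra-C and 9 in intra-S, and none rose. The UGT1 enzymes are made from 1 locus at chr1:88070779-88220002 (GRCm38), where each enzyme has a first exon of its own and all share the exons that follow. Of 100-base windows in their transcripts, 35.1% to 71.5% occur in another gene as well. How reads on the shared exons were assigned is not given in the sources used here, so the UGT1 values may be split between neighbours. Ugt1a1, which conjugates bilirubin, was the most abundant of the locus, with 215 and 176 CPM in sham, 184 and 152 in intra-C and 132 and 68.5 in intra-S livers. Its intra-C livers overlapped the sham livers (log2 fold change -0.22 ± 0.33 SE, adjusted p = 0.719), and its intra-S livers lay below them without passing the test (-0.96 ± 0.34, adjusted p = 0.116). Ugt1a9 stood at 16.4 and 11.2 CPM in sham, 2.55 and 1.76 in intra-C and 1.60 and 0.589 in intra-S livers. It fell in both tumor groups, by 2.67 ± 0.51 and by 3.66 ± 0.54 on the log2 scale (adjusted p = 0.0339 and 0.0147). Ugt1a6a, which conjugates planar phenols, had 17.9 and 16.5 CPM in sham, 14.0 and 10.9 in intra-C and 6.79 and 7.02 in intra-S livers. It fell in intra-S (log2 fold change -1.32 ± 0.22, adjusted p = 0.0210), while its intra-C value was -0.47 ± 0.22 (adjusted p = 0.231). Ugt1a5, Ugt1a6b and Ugt1a7c were not called in either group. Ugt1a5 was at 18.4 and 21.21 CPM in sham, 37.5 and 19.2 in intra-C and 10.7 and 8.95 in intra-S livers. Ugt1a7c was above sham in all 4 tumor livers, but at 0.292 to 0.662 CPM.

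The UGT2 genes, which conjugate steroids, fatty acids and drugs, lie in a cluster at chr5:86889770-87424203. Of 8, 4 fell in intra-C and 6 in intra-S. Ugt2b36 was the most abundant by TPM, with 636 and 601 CPM in sham, 271 and 230 in intra-C and 163 and 190 in intra-S livers. It fell by 1.31 ± 0.21 and by 1.81 ± 0.22 on the log2 scale (adjusted p = 0.0233 and 0.00912). Ugt2b5 had 476 and 437 CPM in sham, 188 and 163 in intra-C and 95.6 and 161 in intra-S livers, and it fell by 1.38 ± 0.29 and 1.83 ± 0.29 (adjusted p = 0.0425 and 0.0180). Ugt2b1 had the smallest adjusted p of the UGT genes in intra-S. Its levels were 466 and 429 CPM in sham, 139 and 145 in intra-C and 62.5 and 85.7 in intra-S livers, with log2 fold changes of -1.66 ± 0.23 and -2.60 ± 0.24 (adjusted p = 0.0165 and 0.00578). Ugt2a3 fell in both groups as well, from 236 and 245 CPM to 113 and 101 and to 101 and 74.7. Ugt2b34 and Ugt2b38 were called lower in intra-S and not in intra-C. Ugt2b34 was at 483 and 483 CPM in sham, 249.3 and 261 in intra-C and 111 and 161 in intra-S livers. The sham livers themselves differed for Ugt2b38 (8.23 and 2.76 CPM, against 2.34 and 1.42 in intra-C and 0.467 and 0.466 in intra-S livers), and 24.2% of its windows also occur in another gene, mainly Ugt2b5. Ugt2b35 and Ugt2b37 had log2 fold changes between -1.04 and -3.79 and were not called. Of the UGT3 enzymes, which use other sugars than glucuronic acid, Ugt3a2 was at 169 and 166 CPM in sham, 96.2 and 95.3 in intra-C and 61.4 and 81.1 in intra-S livers. It fell in intra-S (-1.23 ± 0.21, adjusted p = 0.0216), with -0.81 ± 0.21 in intra-C (adjusted p = 0.0716). Ugt3a1 was at 5.47 and 6.13 CPM in sham and 1.73 to 3.82 CPM in the tumor livers and was not called.

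The promoters of Ugt2b5 and Ugt2b36 are shown because both genes were called lower in both groups and their sequences are alike. The 120 bases before the annotated start are given 5′ to 3′ (RefSeq, GRCm38.p6), on the minus strand at chr5:87140341-87140460 and chr5:87092556-87092675. Capitals mark the C/EBP-type element TTGCNNAA, which lies here on the other strand, and AGGTCA, the hexamer that many nuclear receptors bind.
Ugt2b5: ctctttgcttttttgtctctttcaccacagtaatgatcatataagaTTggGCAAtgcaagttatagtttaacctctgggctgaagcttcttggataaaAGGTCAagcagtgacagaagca
Ugt2b36: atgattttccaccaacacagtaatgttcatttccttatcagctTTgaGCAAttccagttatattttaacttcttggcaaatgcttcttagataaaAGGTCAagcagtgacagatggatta
The AGGTCA lies in a run of 24 bases that is identical in the 2 promoters.

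Of the 15 tested SULT genes, 2 fell in intra-C and 6 in intra-S, and all were members of SULT2, the sulfotransferases of steroids and bile acids. The SULT2 genes lie in a cluster at chr7:13623967-14493023 and are known for a higher level in female than in male mouse liver. Sult2a8, which sulfates bile acids, showed the largest fall of the members above 100 CPM in sham livers. It was at 488 and 519 CPM in sham, 15.4 and 26.6 in intra-C and 2.57 and 13.6 in intra-S livers. Its log2 fold change was -4.59 ± 0.79 in intra-C (adjusted p = 0.0275) and -5.95 ± 0.84 in intra-S (adjusted p = 0.0137). Sult2a1, the most abundant of the subfamily, was at 808 and 869 CPM in sham, 188 and 216 in intra-C and 100.4 and 181 in intra-S livers. It fell by 2.05 ± 0.32 and by 2.58 ± 0.32 on the log2 scale (adjusted p = 0.0204 and 0.0102). Sult2a2 was at 193 and 193 CPM in sham, 92.4 and 105 in intra-C and 34.9 and 65.7 in intra-S livers. Sult2a5 was at 80.3 and 103 CPM in sham, 34.6 and 33.8 in intra-C and 11.3 and 22.6 in intra-S livers. Both were called in intra-S alone (adjusted p = 0.0198 and 0.0147), with adjusted p = 0.113 and 0.0595 in intra-C. Of the windows in Sult2a2, 34.6% are shared with neighbours of the cluster. Sult2a3 was at 73.7 and 45.2 CPM in sham, 4.71 and 5.35 in intra-C and 0.204 and 4.49 in intra-S livers, and it fell in intra-S (adjusted p = 0.0463). The pseudogene Sult2a-ps2 had 32 counts summed over the sham livers and 0 over the intra-S livers. This is at least 4.71-fold lower than the sham mean and 4.22-fold lower than the lower sham liver. Sult2a4, Sult2a6 and Sult2a7 had lower levels in all 4 tumor livers than in both sham livers and were not called. Sult2a7 had 30 counts in sham and 0 in intra-S livers. This is at least 4.34-fold lower than the sham mean and 3.06-fold lower than the lower sham liver.

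The promoter of Sult2a8 is shown because of the size of its fall, and it is 1 of 2 that RefSeq gives for the gene. The 120 bases lie on the minus strand at chr7:14438552-14438671, with AGGTCA and the TATA box TATAAA in capitals.
Sult2a8: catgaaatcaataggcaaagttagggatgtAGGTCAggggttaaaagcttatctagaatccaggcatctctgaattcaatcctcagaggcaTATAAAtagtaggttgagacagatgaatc
The first base of AGGTCA lies 90 bases and that of TATAAA 29 bases before the start.

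No SULT1 gene was called in either group. Sult1a1, the phenol sulfotransferase, was at 755 and 760 CPM in sham, 723 and 541 in intra-C and 577 and 553 in intra-S livers, with log2 fold changes of -0.26 ± 0.22 and -0.42 ± 0.22 (adjusted p = 0.499 and 0.260). Sult1d1, which acts on catecholamines, was at 438 and 378 CPM in sham, 461 and 287 in intra-C and 771 and 258 in intra-S livers. The intra-S livers thus lay on both sides of the sham livers, and Sult1d1 was first of all members by TPM in intra-S replicate 1 and the seventh in intra-S replicate 2. Sult1e1, the estrogen sulfotransferase, was at 0.443 and 0.475 CPM in sham, 16.02 and 2.04 in intra-C and 43.5 and 3.73 in intra-S livers. All 4 tumor livers were higher than both sham livers, with log2 fold changes of 4.29 ± 1.43 and 5.67 ± 1.50, but livers of the same tumor group lay far apart and edgeR did not call it (adjusted p = 0.120 and 0.0611). DESeq2, which called 10.4% and 12.6% of all genes higher, called it in both groups. Sult1b1 was at 27.4 and 32.6 CPM in sham and 12.1 to 18.8 CPM in the tumor livers, and Sult1c2 at 46.8 and 48.6 against 6.56 to 19.4 CPM, without passing the test. Sult3a1 was listed at 0 counts in sham replicate 1 and 96 in sham replicate 2, so that no level can be set for the sham group.

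The promoter of Sult1e1, on the minus strand at chr5:87591612-87591731, is shown because its values went opposite to those of most members, with TGACCT, the complement of AGGTCA, in capitals.
Sult1e1: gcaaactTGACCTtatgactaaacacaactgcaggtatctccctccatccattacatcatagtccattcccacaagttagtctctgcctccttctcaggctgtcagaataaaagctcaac
Sequences of 300 bases, 250 before and 50 after the start, were at hand for 61 promoters of 50 members. TTGCNNAA occurred on either strand in 13 of them (21.3%) and in 10.8% of 32851 promoters of all genes, and TATAAA, searched on the gene's strand alone, in 9 (14.8%) and in 8.32%. AGGTCA occurred in 12 (19.7%) and in 16.3%, and TGACNNNGC, the core of the antioxidant response element, in 4 (6.56%) and in 12.4%. None of the 28 promoters of members called lower held TGACNNNGC, which says only that these letters are not in these windows.

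**Figure D3:**
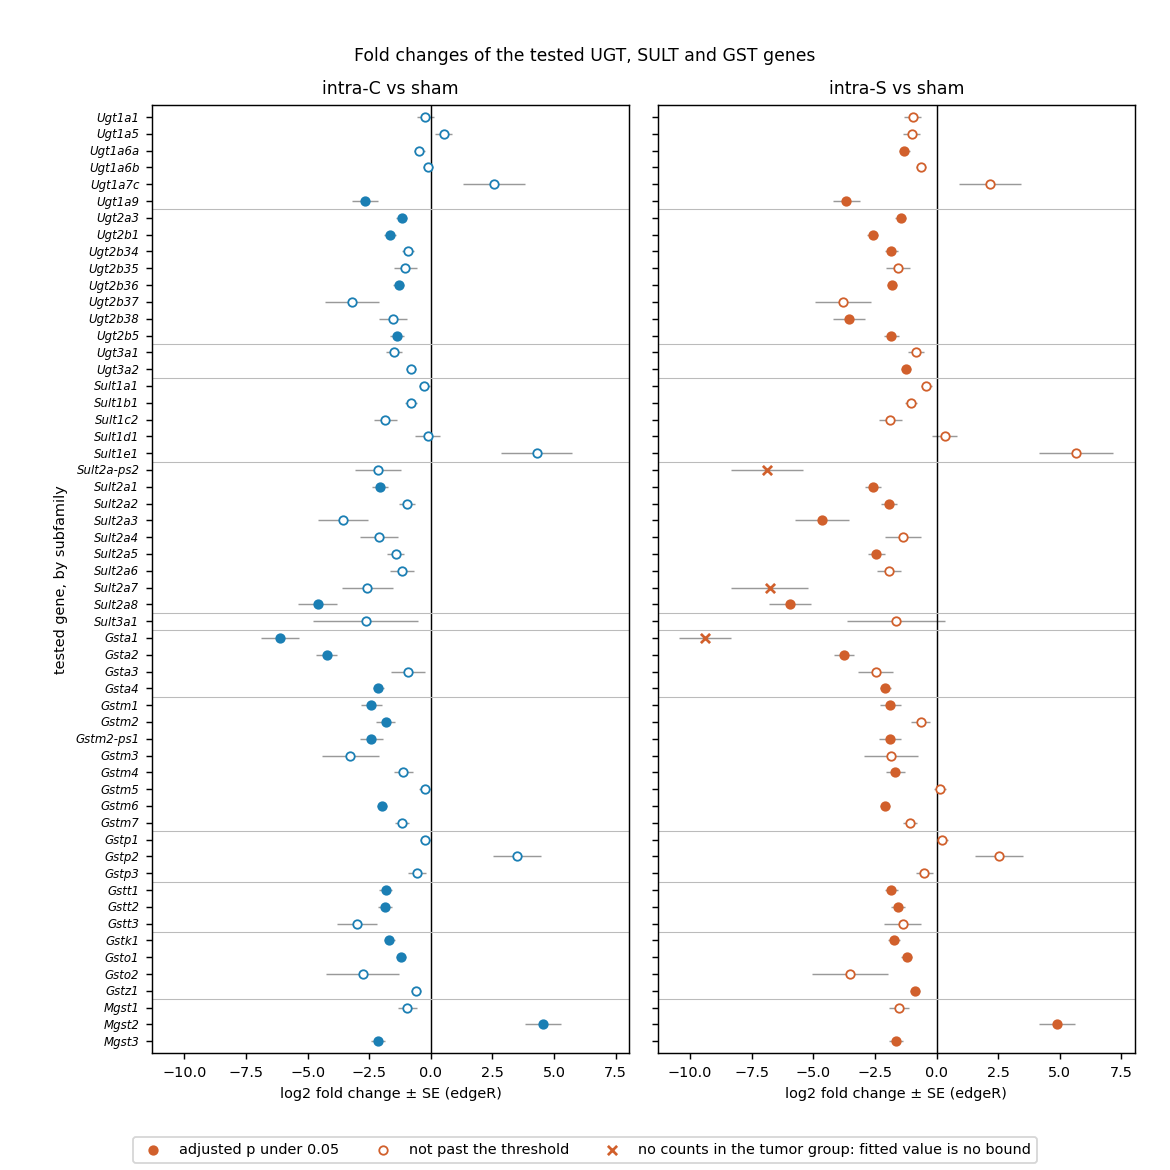
Log2 fold change with its SE from edgeR for the 56 tested genes in intra-C against sham (left) and intra-S against sham (right), by subfamily. Filled points passed an adjusted p of 0.05, and crosses are genes without a count in the intra-S livers, whose fitted value is no bound. Of the genes called (20 and 29), Gsta1 and Sult2a-ps2 are drawn as crosses in intra-S.

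The GST genes gave 12 lower calls in intra-C and 13 in intra-S, of 25 tested, and 1 higher call in both. The alpha class (GSTA) detoxifies lipid peroxidation products such as 4-hydroxynonenal, with Gsta4 as its specialist. Gsta2 was at 77.7 and 43.5 CPM in sham, 3.31 and 3.12 in intra-C and 5.75 and 3.24 in intra-S livers. It fell by 4.23 ± 0.42 and by 3.76 ± 0.41 on the log2 scale (adjusted p = 0.00727 and 0.00711). Gsta4 was at 164 and 142 CPM in sham, 32.8 and 36.8 in intra-C and 31.9 and 40.2 in intra-S livers and fell by 2.14 ± 0.22 and 2.08 ± 0.22 (adjusted p = 0.00781 and 0.00681). Gsta1 was counted 81 and 104 times in sham, once in each intra-C liver and 0 times in both intra-S livers. Its pooled level was 78.1-fold lower in intra-C (95% counting interval 21.3 to 650.0). In intra-S livers it was at least 27.0-fold lower than the sham mean and 24.8-fold lower than the lower sham liver. Of the windows in Gsta1 and Gsta2, 81.8% and 35.0% are shared with other genes, so that their counts are uncertain. Gsta3, known in mice for clearing aflatoxin epoxide, was the most abundant of all members in sham livers. It was at 1854 and 1817 CPM in sham, 807 and 1107 in intra-C and 102 and 559 in intra-S livers. Both tumor groups lay below sham, but the 2 intra-S livers lay far apart and the gene was not called (adjusted p = 0.430 and 0.0778).

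The mu class (GSTM) conjugates epoxides and quinones, and its genes lie at chr3:107895854-108045179, apart from the pseudogene Gstm2-ps1 at chr5:116632481-116633605. Of its 8 tested members, 4 fell in each comparison. Gstm1, the most abundant, was at 759 and 637 CPM in sham, 143 and 121 in intra-C and 269 and 109 in intra-S livers, and it fell by 2.41 ± 0.43 and by 1.88 ± 0.43 on the log2 scale (adjusted p = 0.0299 and 0.0415). Gstm6 was at 111 and 113 CPM in sham, 30.3 and 25.9 in intra-C and 24.1 and 28.5 in intra-S livers and fell by 2.00 ± 0.20 and 2.09 ± 0.20 (adjusted p = 0.00744 and 0.00598). Gstm2-ps1 was at 22.9 and 18.4 CPM in sham, 4.38 and 3.34 in intra-C and 8.11 and 3.14 in intra-S livers and was called lower in both groups too (adjusted p = 0.0350 and 0.0494). It shares 12.9% of its windows with other genes, mainly Gstm1, and its counts may hold reads of that gene. Gstm2 fell in intra-C (124 and 111 against 36.1 and 29.9 CPM, adjusted p = 0.0448), and its intra-S livers were at 105 and 45.5 CPM (adjusted p = 0.309). Gstm4 fell in intra-S (23.9 and 30.8 against 5.37 and 11.8 CPM, adjusted p = 0.0474). Gstm5, a member known from brain and testis, was at 13.0 and 14.6 CPM in sham, 12.1 and 11.2 in intra-C and 12.7 and 17.9 in intra-S livers and was not called. The sign of its small intra-S difference turned under another scaling. Gstm3 and Gstm7 were lower than sham in all 4 tumor livers and were not called.

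The theta class (GSTT) acts on small halogenated compounds. Gstt1 was at 316 and 316 CPM in sham, 92.4 and 85.3 in intra-C and 69.6 and 107 in intra-S livers, with log2 fold changes of -1.83 ± 0.26 and -1.84 ± 0.26 (adjusted p = 0.0169 and 0.0135). Gstt2 fell in both groups as well, from 103 and 121 CPM to 32.2 and 29.5 in intra-C and 28.3 and 47.4 in intra-S livers. Their neighbour Gstt3 was at 147 and 139 CPM in sham, 21.9 and 13.8 in intra-C and 95.9 and 14.9 in intra-S livers. One intra-S liver thus lay between the sham and the intra-C livers and the other among the intra-C livers, and edgeR did not call Gstt3. Gstk1, the mitochondrial and peroxisomal kappa enzyme, was at 146 and 162 CPM in sham, 48.9 and 47.2 in intra-C and 54.2 and 39.2 in intra-S livers and fell in both groups (adjusted p = 0.0154 and 0.0119). Gsto1, an omega enzyme that reduces dehydroascorbate, fell from 72.7 and 74.2 CPM to 31.6 and 31.7 and to 36.7 and 26.6. Gstz1, the maleylacetoacetate isomerase of tyrosine breakdown, was at 751 and 804 CPM in sham, 473 and 548 in intra-C and 396 and 458 in intra-S livers. It fell in intra-S by 0.86 ± 0.21 on the log2 scale, at the edge of the threshold (adjusted p = 0.0496). Gsto2 was at 0.493 and 0.747 CPM in sham and at most 0.186 CPM in the tumor livers and was not called.

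The pi class (GSTP), whose first member is prominent in many tumors, had no gene called by edgeR. Gstp1 was at 186 and 142 CPM in sham, 149 and 133 in intra-C and 206 and 177 in intra-S livers, which overlapped in both comparisons (log2 fold change -0.22 ± 0.22 and 0.22 ± 0.22, adjusted p = 0.580 and 0.540). Gstp2, at the neighbouring gene chr19:4040288-4042221, was at 0.443 and 0.679 CPM in sham, 7.38 and 5.35 in intra-C and 0.612 and 5.94 in intra-S livers. Both intra-C livers and intra-S replicate 2 were above the sham livers and intra-S replicate 1 lay between them, and edgeR did not call it (adjusted p = 0.0839 and 0.137). DESeq2 called it higher in both groups, as it did Sult1e1. Of the windows in Gstp2, 63.5% are shared with other genes, mainly Gstp1. Only uniquely aligned reads were counted, and whether reads of Gstp1 entered the Gstp2 count was not tested. Gstp3 was at 22.9 and 20.03 CPM in sham and 9.62 to 20.9 CPM in the tumor livers.

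Of the microsomal enzymes, Mgst1, which protects membranes from lipid peroxides, was the second most abundant member in sham livers. It was at 1421 and 1451 CPM in sham, 685 and 791 in intra-C and 304 and 702 in intra-S livers and was not called (adjusted p = 0.177 and 0.0591). Mgst3 fell in both groups, from 20.8 and 22.4 CPM to 5.12 and 4.73 and to 5.22 and 8.51 (adjusted p = 0.0154 and 0.0216). Mgst2, which also makes leukotriene C4, was the 1 member that rose. Sham livers had 2 counts and 1 count of it, intra-C livers 32 each and intra-S livers 43 and 42. Its pooled level was 25.3-fold higher in intra-C (95% counting interval 8.26 to 126) and 32.0-fold higher in intra-S livers (10.6 to 158), with adjusted p = 0.0231 and 0.0154. The level stayed low, at 0.815 to 1.25 CPM in the tumor livers. Like the sums of neutrophil, macrophage, endothelial and proliferation markers given above, it was higher in every tumor liver than in both sham livers. Between the intra-C livers the neutrophil sum differed (899 and 2016 TPM), while Mgst2 had 32 counts in each. The part of other cells in its level was not tested.

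**Figure D4:**
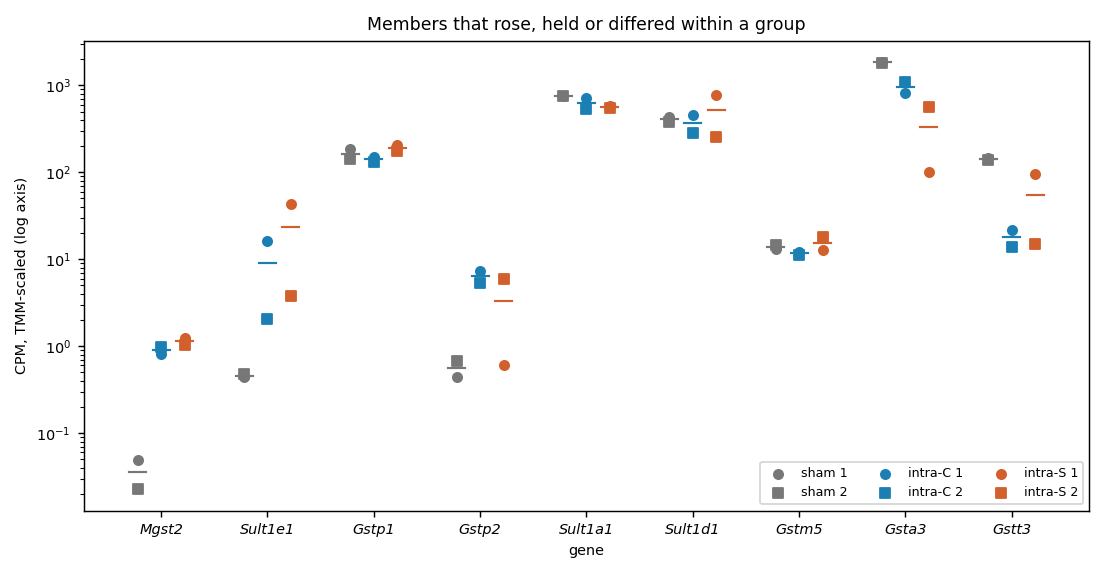
TMM-scaled CPM on a log axis for 9 members that rose, overlapped with sham or differed between livers of 1 group, with circles for replicate 1, squares for replicate 2 and short lines for group means. Mgst2 lies below 0.05 CPM in the sham livers and between 0.815 and 1.25 CPM in the tumor livers, and Gsta3 and Gstt3 differ between the 2 intra-S livers.

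The tumor groups were also compared with each other. No member was called in intra-S against intra-C, and no gene of the whole table was (0% called in both directions). At an unadjusted p under 0.05, 10 members were lower and 1 was higher in intra-S, where 6.41% and 6.99% of all genes were. DESeq2 called Ugt1a5, Ugt2b1 and Ugt2b34 lower in intra-S than in intra-C and none higher, where it called 2.03% and 1.7% of all genes. Of the 10 genes that edgeR called lower in intra-S and not in intra-C against sham, Ugt2b34 was the 1 that DESeq2 called between the tumor groups, and edgeR called none of them. Without intra-S replicate 2, edgeR called 18 members lower and 6 higher, where 9.02% and 7.53% of all genes were called lower and higher. Without intra-S replicate 1, or without any 1 of the sham and intra-C livers, it called no member. The tested UGT genes had a log2 fold change below 0 in 15 of 16 cases in this comparison (median -0.57), the SULT genes in 11 of 15 (median -0.52) and the GST genes in 10 of 25 (median 0.08). The median over all genes tested was 0.03.

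Genes that feed the 3 pathways were taken from 3 lists. Over all genes tested, 2.38% and 3.95% were called lower and 4.92% and 6.78% higher in intra-C and intra-S. The median log2 fold change in intra-C and intra-S livers was -0.03 and 0.33 for the UDP-glucuronic acid list, 0.02 and -0.16 for that of PAPS and sulfate, and -0.28 and -0.37 for the glutathione genes. Of the 9 genes listed for UDP-glucuronic acid, none was called in intra-C, and Pgm2, a sugar phosphate mutase, rose in intra-S livers (3.82 and 5.12 against 23.2 and 12.2 CPM). This list holds 3 genes that do not supply it, namely Gusb, which splits glucuronides, Ugt8a, a ceramide galactosyltransferase, and Uxs1, which uses up UDP-glucuronic acid. The median over the other 6 genes, chosen after the values were seen, was -0.70 in intra-C and -0.06 in intra-S livers. Ugdh, which makes UDP-glucuronic acid, was at 251 and 215 CPM in sham, 155 and 95.6 in intra-C and 117 and 89.7 in intra-S livers and did not pass (adjusted p = 0.115 and 0.0538). Of 9 genes for PAPS and sulfate, Papss2, the PAPS synthase of liver, was at 449 and 463 CPM in sham, 136 and 147 in intra-C and 143 and 82.8 in intra-S livers. It fell by 1.69 ± 0.29 and by 2.01 ± 0.30 on the log2 scale (adjusted p = 0.0281 and 0.0151). The sulfate carrier Slc26a1 fell in intra-S (122 and 141 against 46.3 and 68.3 CPM). Of 19 tested genes that make glutathione or process its conjugates, 2 rose and 1 fell in intra-C, and 1 rose and 4 fell in intra-S. Chac1, which breaks glutathione down, rose in both, from 2.66 and 1.27 CPM to 19.5 and 9.59 and to 17.8 and 10.8. Kyat1, a cysteine conjugate lyase, rose in intra-C, from 62.3 and 70.3 to 135 and 142 CPM. The aminoacylase Acy1 fell in both, from 69.6 and 68.9 CPM to 29.1 and 28.1 and to 34.1 and 34.7. In intra-S, Acy3 fell from 46.9 and 51.2 to 6.97 and 19.1 CPM and Kyat3 from 451 and 409 to 223 and 238 CPM. Gclc, the catalytic subunit of the rate-limiting ligase of glutathione synthesis, was at 274 and 219 CPM in sham, 146 and 168 in intra-C and 79.0 and 116 in intra-S livers and fell in intra-S (adjusted p = 0.0303).

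**Figure D5:**
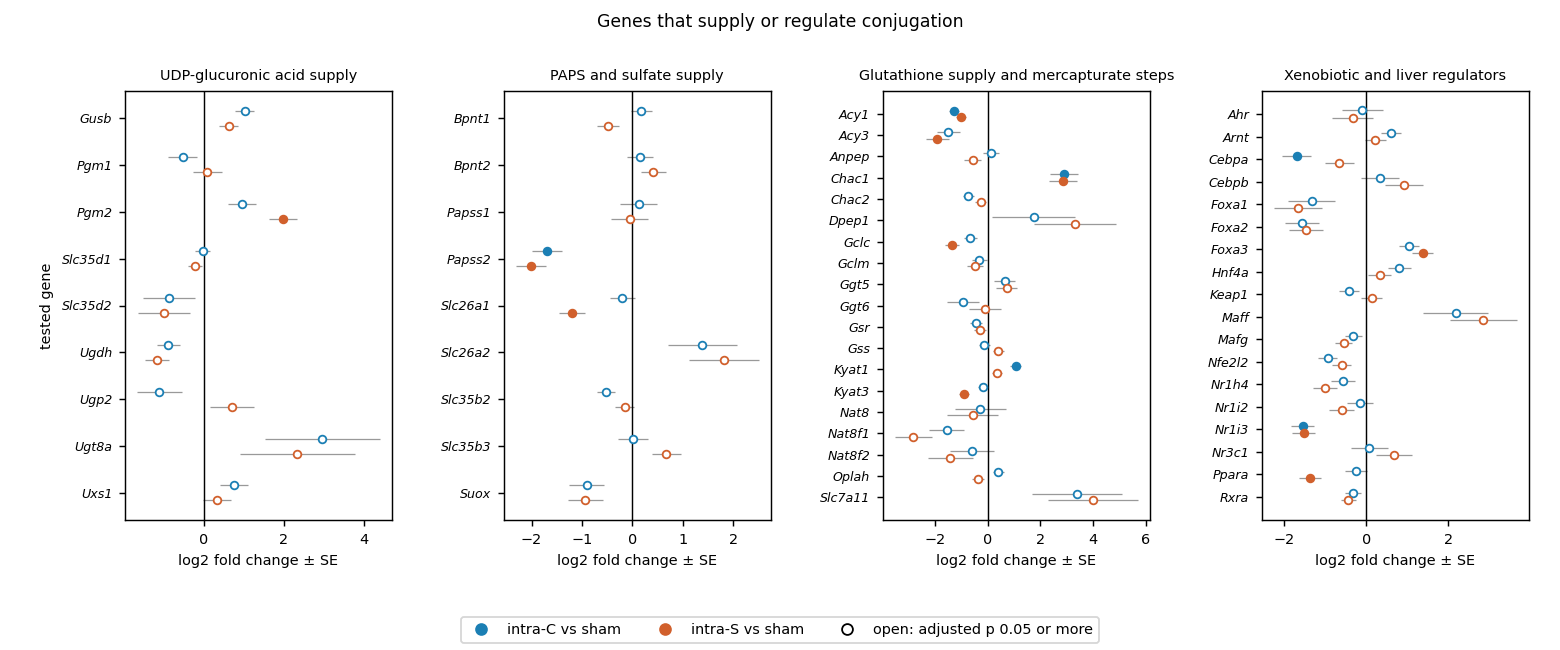
Log2 fold change with its SE from edgeR for the tested genes of 4 lists, in intra-C (blue) and intra-S (orange) against sham, with filled points past an adjusted p of 0.05. Papss2, Acy1 and Nr1i3 lie below 0 and Chac1 above 0 with filled points in both comparisons.

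Other genes of related fold or task moved both ways. For the lists that follow, the shares over all genes tested were 2.38% and 3.95% called lower and 4.92% and 6.78% called higher in intra-C and intra-S. Of 11 further genes of the GST fold or the MAPEG family, 2 rose and 1 fell in intra-C, and 5 rose and 1 fell in intra-S. Alox5ap, the leukotriene helper protein of myeloid cells, rose from 0.468 and 1.24 CPM to 12.3 and 12.1 and to 20.4 and 13.8 (adjusted p = 0.0129 and 0.00782), and Clic1 rose in both groups, from 6.68 and 7.49 CPM to 15.1 and 19.3 and to 21.3 and 30.4. Hpgds, Ptges and Ltc4s rose in intra-S. Hpgds went from 0.862 and 0.702 to 2.65 and 3.80 CPM, and Ptges and Ltc4s had 0 counts in both sham livers against 9.59 and 2.26 and 0.292 and 0.515 CPM in intra-S livers. Ptges and Ltc4s passed the filter on low counts only through tumor livers, so their calls are weak and no fold is given. Faah, a fatty acid amide hydrolase that stood on this list without having either fold, fell in both, from 162 and 168 CPM to 70.7 and 61.9 and to 28.1 and 47.7. The median log2 fold change of the list was 1.28 in intra-C and 1.00 in intra-S livers. Of 17 other tested conjugating enzymes, Nnmt, the nicotinamide N-methyltransferase, rose in intra-C (146 and 186 against 447 and 419 CPM, adjusted p = 0.0499), and in intra-S Inmt fell from 702 and 468 to 1.66 and 28.6 CPM and Baat, which conjugates bile acids with amino acids, from 195 and 193 to 74.1 and 94.1 CPM. Of 18 tested regulators, Nr1i3, which encodes CAR, was at 203 and 134 CPM in sham, 49.2 and 66.0 in intra-C and 57.0 and 60.01 in intra-S livers and fell in both groups (adjusted p = 0.0291 and 0.0241). Cebpa fell in intra-C (168 and 271 against 57.7 and 77.7 CPM). In intra-S, Ppara fell (243 and 226 against 91.2 and 88.6 CPM) and Foxa3 rose (29.9 and 26.01 against 80.3 and 64.2 CPM). Nfe2l2, which encodes NRF2, Ahr, Nr1i2, which encodes PXR, and Hnf4a were not called. The median log2 fold change of these regulators was -0.29 and -0.50. Of 10 known NRF2 targets, Nqo1 fell from 15.3 and 12.7 CPM to 4.84 and 4.08 and to 4.02 and 3.24, and Ephx1 from 329 and 262 CPM to 82.4 and 71.3 and to 151 and 91.8. In intra-S Gclc fell, as above, and Hmox1 rose from 11.9 and 11.7 to 189 and 54.6 CPM. In each comparison with sham, the log2 fold change was above 0 for 4 of these 10 targets and below 0 for 6. The median of the 10 was -0.301 in intra-C and -0.492 in intra-S livers. Among genes known to differ between the sexes in mouse liver, 2 of 12 female-biased genes fell in intra-C and 5 in intra-S, and of 9 tested male-biased genes 2 fell and 1 rose in intra-C, and 5 fell and 1 rose in intra-S. The X-linked gene Xist was at 1038 and 1092 CPM in sham, 945 and 980 in intra-C and 818 and 660 in intra-S livers. The Y-linked genes Ddx3y, Uty, Kdm5d and Eif2s3y were not among the 20140 genes listed.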

How the data were processed

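Poly(A) RNA of 6 whole livers (2 each of sham, intra-C and intra-S) was analyzed. The authors aligned reads to mm10 with HISAT2 2.1.0, counted uniquely aligned reads on exons with featureCounts (Subread 2.0.6) and deposited raw counts. The TPM values were calculated by the authors from counts and gene lengths. The annotation and the strand setting are not given in the sources used here, so reads of antisense or overlapping genes may be mixed. Members were chosen by symbol, and the members and the gene lists, written by hand from general knowledge, were chosen with earlier results of these data known. A gene of the regulator list is not reported here.

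Counts were tested with edgeR 4.0.16 (R 4.3.3; quasi-likelihood, TMM, filterByExpr with a count minimum of 10, Benjamini-Hochberg over 16370 genes, threshold 0.05) in 1 fit over 6 livers. SE is the log2 fold change divided by the square root of F. The procedure was run on simulated counts with known changes. This checked the code and is no evidence for the calls in these livers. Named with values were members called against sham, the 2 members of each subfamily with the highest mean TPM and called genes of the pathway lists, and members called by DESeq2 alone were named, and some further members were named after their values were seen. Alternatives were DESeq2 1.42.0, limma 3.58.1 on log2(TPM + 1) and log2(TPM + 0.1), other scaling and filters, 2-group fits, a replicate block and leaving out each liver. The series states biological replicates, and nothing in the labels names a batch. Promoters came from RefSeq (GRCm38.p6), gene positions likewise, and windows of 100 bases shared between genes were counted in GENCODE M21 transcripts (60 of 60 members matched). Python 3.11.15 was used for tables and plots.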

Additional observations from a re-analysis of the deposited data

How the results depend on the processing

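All 20 calls in intra-C and all 29 in intra-S against sham kept their direction in every alternative in which they were tested. The counts moved more. Members called lower numbered 19 in intra-C and 28 in intra-S. They came to 30 and 39 with DESeq2 (6.78% and 8.95% of all genes were called lower), 39 and 8 when only the 2 groups compared were fitted (14.2% and 0.734%), 23 and 36 with library size without TMM (4.89% and 6.81%), 27 and 39 with limma on log2(TPM + 1) (5.47% and 9.49%) and 26 and 38 on log2(TPM + 0.1) (5.44% and 9.02%), against 2.38% and 3.95% in the fit reported. Leaving out 1 liver gave 0 to 38 (0% to 12.02% of all genes) and 0 to 39 (0% to 15.4%), and 0 to 18 in intra-S against intra-C (0% to 9.02%), where DESeq2 gave 3. Members called higher numbered 1 in each comparison with sham. They came to 3 and 3 with DESeq2 (10.4% and 12.6% of all genes were called higher), 3 and 0 with only 2 groups (16.3% and 1.75%), 0 and 0 with at least 10 counts in every liver (5.77% and 7.22%), 2 in intra-S without a filter (5.88%) and 2 in intra-S with the replicate block (5.83%). Leaving out 1 liver gave 0 to 3 in both (0% to 14.5% and 0% to 17.3%), and 0 to 6 in intra-S against intra-C (0% to 7.53%). Library size without TMM moved the median log2 fold change of all genes to -0.25 and -0.23. Signs turned for members that were not called. In intra-S, Gstp1 came to -0.0555 without TMM and -0.065 and -0.065 on log2(TPM + 1) and log2(TPM + 0.1), Gstm5 to -0.11, -0.16 and -0.17 likewise, and Sult1d1 to -0.16 and -0.17 on the TPM scales. Leaving out 1 liver gave log2 fold changes of -0.12 to 0.38 for Gstm5, -0.66 to 0.92 for Sult1d1 and -8.38 to 6.71 for Sult3a1 in intra-S, and of -0.51 to 0.20 for Sult1d1, -3.62 to 5.72 for Sult3a1, -0.041 to 0.94 for Ugt1a5 and -0.26 to 0.021 for Ugt1a6b in intra-C. The cause of these shifts was not tested. Replicate numbers did not pair the livers (correlations of -0.04, 0.11 and 0.07), and with the replicate block 19 and 30 members were called lower (1.58% and 3.38% of all genes). In intra-C, Ugt2b5 was then not called and Gstt3 was, and in intra-S Gstz1 and Sult2a-ps2 were not called and Gsta3, Mgst1, Sult1c2, Sult2a6 and, as higher, Sult1e1 were. Where 1 liver was left in a group, it was assumed to vary like the others. The 4 members under the filter were not called in the fit without one (adjusted p 0.142 to 0.791 against sham). By pooled counts, Ugt1a2 was 16.9-fold lower in intra-C (95% counting interval 2.70 to 700.3) and 17.7-fold lower in intra-S (2.83 to 734), and Sult5a1 was 27.5-fold lower in intra-S (4.58 to 1119). Sult4a1 and Sult3a2 went the other way. Sult4a1 was 4.14-fold higher in intra-C (0.789 to 40.9). Sult3a2 had 0 counts in sham, 10 in intra-C and 16 in intra-S livers, those of intra-S all in replicate 2. In intra-C this is at least 2.03-fold by the mean and 1.44-fold by the lower liver.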
